A study of Homo sapiens with 30 samples.

Results

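The proteasome subunit and assembly genes were followed in HCT116 and Ramos cells treated with Omomyc. They were the protein-coding genes whose symbol starts with PSMA, PSMB, PSMC, PSMD, PSME, PSMF or PSMG, and 49 of the 57992 genes in the deposited table met that rule. Of these, 48 encode subunits, activators, an inhibitor or assembly factors of the proteasome, and PSMC3IP, a recombination factor named after a partner, was carried in only by its symbol. Omomyc is a miniprotein derived from the dimerization domain of MYC that pairs with itself and with MAX and occupies E boxes. RNA-Seq was done on 30 libraries in 10 groups of 3. HCT116 is a colon carcinoma line labelled as having stabilized MYC, and its cells were untreated or received 2 or 10 μM Omomyc for 6 or 24 h. Ramos is a Burkitt's lymphoma line labelled as having a MYC translocation, and its cells were untreated or received 0.5 or 2.5 μM Omomyc for 6 or 24 h. The lower HCT116 dose is given as in the labels, and the study's methods give a slightly higher one. The methods name a protein delivery reagent for HCT116 and do not say whether untreated cells received it. Each line has a single untreated group without a stated time, so the comparisons of a line share their controls.

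The 20S core particle is a barrel in which rings of alpha subunits (PSMA) enclose rings of beta subunits (PSMB), of which PSMB5, PSMB6 and PSMB7 cut peptide bonds. The 19S cap binds ubiquitinated proteins, unfolds them with its ring of ATPases (PSMC) and is completed by non-ATPase subunits (PSMD). In lymphoid cells and under interferon, PSMB8, PSMB9 and PSMB10 take the places of PSMB5, PSMB6 and PSMB7, and the PA28 activator of PSME1 and PSME2 can replace the cap. The resulting immunoproteasome is known for cutting antigen peptides for MHC class I molecules.

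The values are RPKM, a read count scaled by gene length and library size, and the number of reads is unknown. Correlations of log2 values between replicates ran from 0.973 to 0.996. Summed epithelial markers were between 1417 and 2233 RPKM in HCT116 libraries and at most 1.74 in Ramos libraries, while summed B cell markers were at most 3.12 and between 1557 and 1714, which matches the labels of the lines. The RPKM of a library summed to 593633 to 660769 in untreated HCT116 cells and to as much as 1051040 in replicate 3 of the 10 μM 6 h group. The 5 small structural RNAs RN7SL1, RN7SL2, RN7SK, RMRP and RPPH1 held 20.5% to 27.5% of that sum in untreated HCT116 cells and 52.0% in the same library, which stood apart from its replicates. In bulk RNA, fewer expressing cells and less RNA per cell cannot be told apart. Nothing in the labels says that replicates were separate cultures, so p-values measure the spread between these libraries, which may be technical.

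In HCT116 cells, most subunit genes of the 20S core and the 19S cap rose with Omomyc, while PSMB9 and PSME1 fell. The comparison asks how gene expression in a tumor line labelled as having stabilized MYC changed with dose and time. A gene passed the test at a Benjamini-Hochberg adjusted p under 0.05 over all genes tested with limma on log2(RPKM + 0.5), and 46 members were expressed highly enough to be tested (mean RPKM of at least 0.5). At 2 μM for 6 h, 34 members rose and 2 fell, together 78.3% of those tested, where 47.3% of all genes passed, 15.5% upward and 31.8% downward. At 2 μM for 24 h, 27 rose and 1 fell against a background of 27.3% (16.6% upward and 10.8% downward). At 10 μM for 24 h, 31 rose and 3 fell against 35.2% (19.5% upward and 15.7% downward). At 10 μM for 6 h, 5 rose and 3 fell against 30% (8.84% upward and 21.2% downward). The members' median log2 fold changes in this order were 0.32, 0.19, 0.27 and 0.07, beside medians over all genes of -0.12, 0.04, 0.02 and -0.11.

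**Figure D1:**
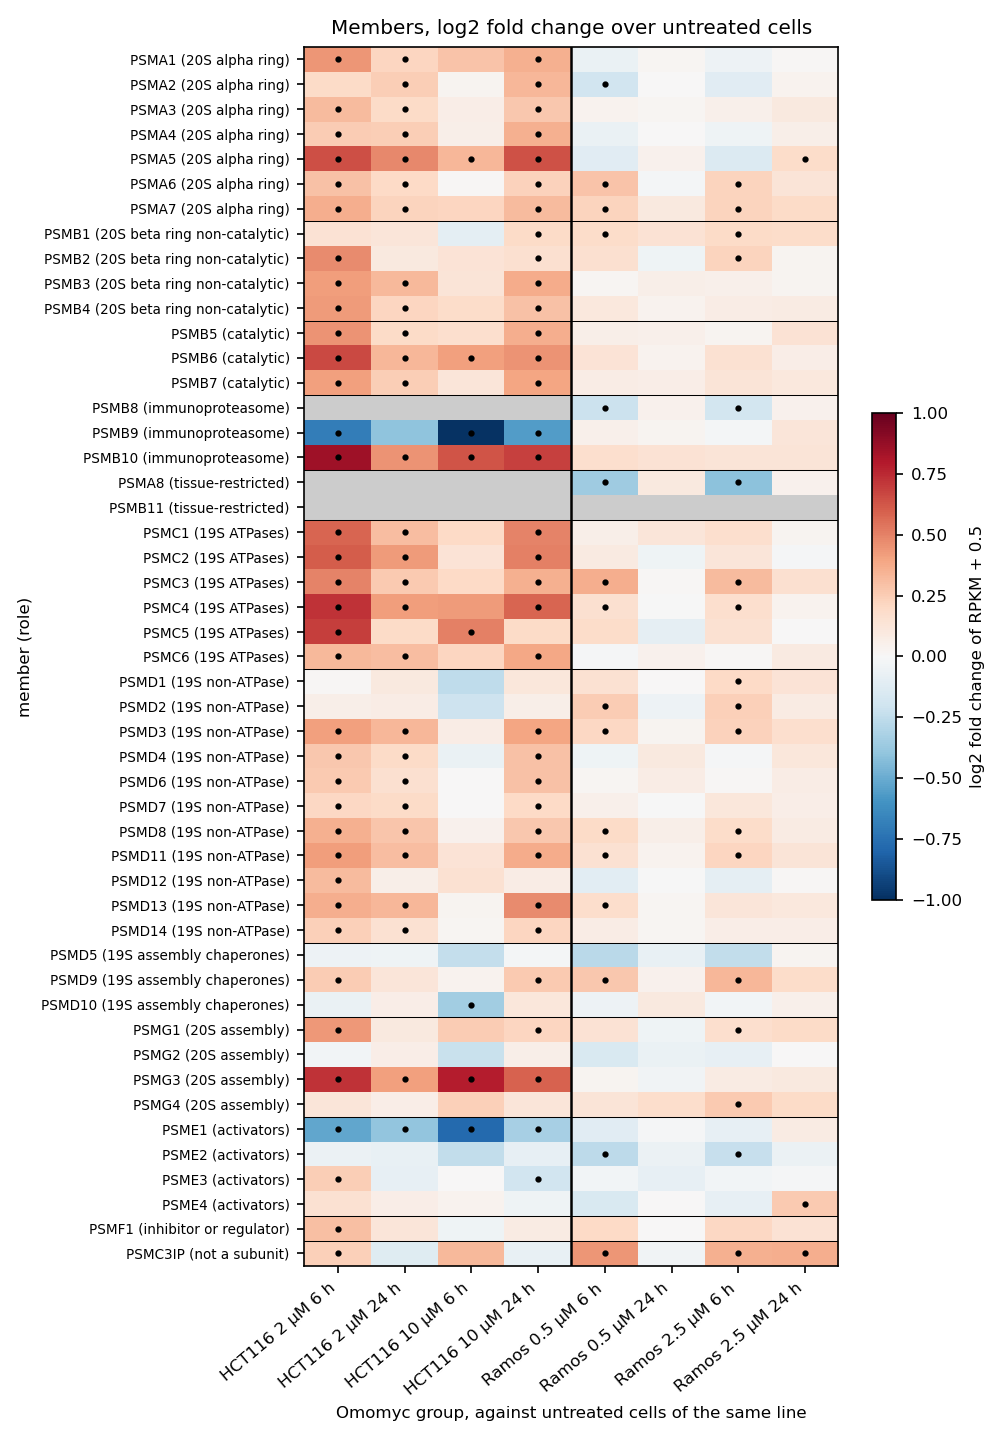
Log2 fold change of each of the 49 members (rows, grouped by role) in the 8 Omomyc groups (columns) over untreated cells of the same line, with a dot where the adjusted p is under 0.05 and grey where the member was not tested. Red fills most of the 20S and 19S rows in 3 of the 4 HCT116 columns, PSMB9 and PSME1 are blue there, and the Ramos columns are paler.

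The catalytic subunits of the constitutive core were among the genes that rose. PSMB6, the caspase-like subunit, was at 148, 148 and 145 RPKM in the untreated libraries and at 229, 249 and 221 after 6 h with 2 μM, so the groups did not overlap. Its log2 fold change was 0.66 ± 0.06 (SE here and below, n = 3 per group, limma adjusted p = 9.62e-05), followed by 0.33 ± 0.04 at 24 h (adjusted p = 0.000983). At 10 μM it was at 212, 204 and 171 RPKM after 6 h, a change of 0.41 ± 0.11 (adjusted p = 0.0303), and at 204, 207 and 193 after 24 h, a change of 0.45 ± 0.05 (adjusted p = 0.00017).

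PSMB5, the chymotrypsin-like subunit that bortezomib inhibits, was at 119, 114 and 116 RPKM without Omomyc and at 172, 158 and 147 after 6 h with 2 μM (0.45 ± 0.07, adjusted p = 0.000853). After 24 h it stood at 135, 131 and 134 RPKM with 2 μM (0.19 ± 0.04, adjusted p = 0.00946) and at 149.6, 157 and 144 with 10 μM (0.37 ± 0.05, adjusted p = 0.000578). All of these libraries were above all untreated ones. PSMB7, the trypsin-like subunit, changed by 0.41 ± 0.06, 0.25 ± 0.04 and 0.40 ± 0.04 in the same 3 comparisons (adjusted p = 0.000481, 0.00293 and 0.000203). At 10 μM for 6 h neither passed: PSMB5 was at 136, 142 and 117 RPKM, with the last inside the untreated range (0.17 ± 0.11, adjusted p = 0.263), and PSMB7 changed by 0.12 ± 0.10 (adjusted p = 0.428).

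**Figure D2:**
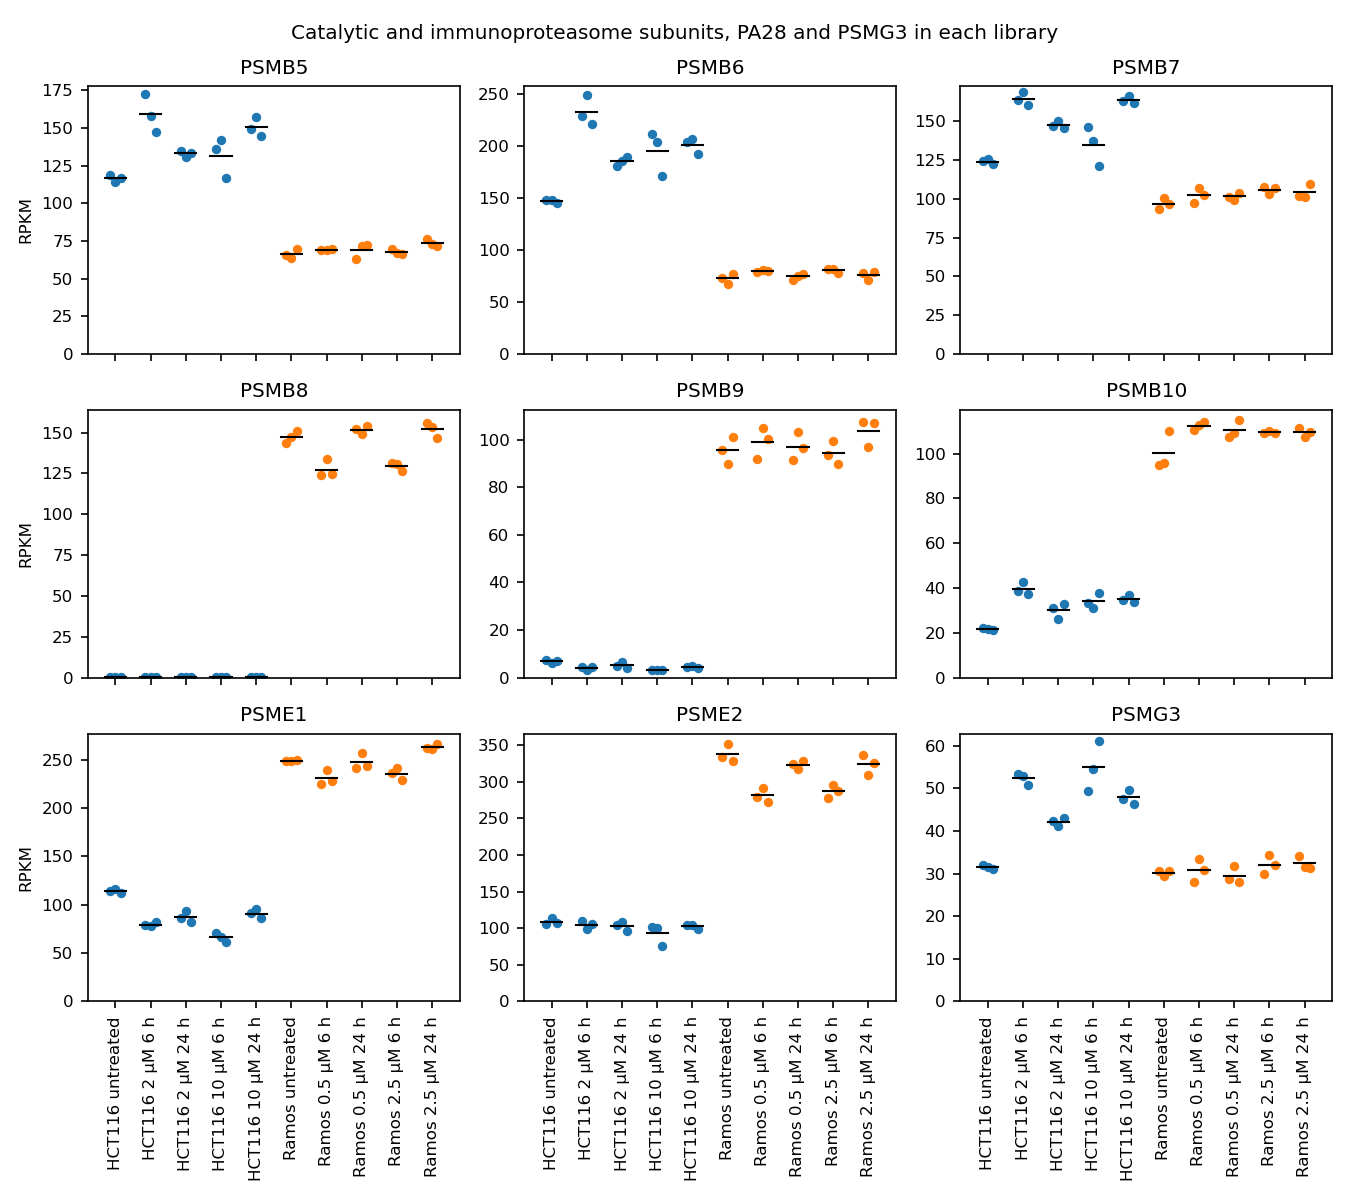
RPKM (vertical axes from 0) of 9 members in every library, by group along the horizontal axes, with points for the 3 libraries of a group, bars for their means, HCT116 in blue and Ramos in orange. PSMB5, PSMB6, PSMB7, PSMB10 and PSMG3 sit higher in treated than untreated HCT116 cells except in single 10 μM 6 h libraries, PSMB9 and PSME1 sit lower, and PSMB8 is near 0 in HCT116.

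The other core subunits moved with them. Of the 7 alpha ring genes, which form the gate of the barrel, 6, 7 and 7 rose at 2 μM 6 h, 2 μM 24 h and 10 μM 24 h, with log2 fold changes from 0.19 to 0.64, 0.19 to 0.48 and 0.23 to 0.63. PSMA5, the largest riser among them, was at 68.6, 66.3 and 67.1 RPKM in untreated cells and at 112, 109 and 94.1 after 24 h with 10 μM (0.63 ± 0.07, adjusted p = 0.000159), and it changed by 0.48 ± 0.05 after 24 h with 2 μM (adjusted p = 0.000523). Of the 4 non-catalytic beta genes PSMB1 to PSMB4, 3, 2 and 4 rose in those comparisons. Summed over its 14 constitutive genes, the 20S core had 2010 ± 7.18 RPKM (SD, n = 3) in untreated cells, 2616 ± 131 after 6 h and 2367 ± 23.6 after 24 h with 2 μM, and 2215 ± 87.0 and 2532 ± 127 with 10 μM. The lowest treated library, at 2122, was above the highest untreated one, at 2018.

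The ATPases of the cap, which unfold substrates, rose more than its other subunits at 2 μM 6 h, with medians of 0.59 over 6 ATPases and 0.27 over 11 non-ATPase genes, a difference that was not tested. All 6 ATPases passed upward there, and 5 did so in each 24 h comparison. PSMC4 was at 66.1, 64.4 and 68.3 RPKM without Omomyc and at 111, 110.3 and 107 with 2 μM for 6 h (0.72 ± 0.06, adjusted p = 3.43e-05). PSMC2 was at 46.4, 50.4 and 42.9 RPKM in untreated cells and at 66.1, 61.0 and 61.2 after 24 h with 2 μM (0.43 ± 0.06, adjusted p = 0.00233). At 10 μM 6 h PSMC5 was the only ATPase that passed, with 65.1, 64.0 and 63.8 RPKM beside 50.0, 40.6 and 45.5 untreated (0.50 ± 0.10, adjusted p = 0.0114). Of the 11 non-ATPase genes, 9, 8 and 8 rose at 2 μM 6 h, 2 μM 24 h and 10 μM 24 h, and none passed at 10 μM 6 h, where PSMD10, a chaperone of cap assembly also called gankyrin, fell from 31.4, 33.0 and 31.2 RPKM to 25.9, 23.8 and 25.0 (-0.35 ± 0.09, adjusted p = 0.0248). PSMD2, a scaffold of the cap base, did not pass the test in any HCT116 comparison.

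Among the assembly chaperones of the core, PSMG3 passed upward in each HCT116 comparison, PSMG1 in 2 and PSMG2 and PSMG4 in 0. PSMG3 works with PSMG4 and was at 32.1, 31.6 and 31.0 RPKM in untreated cells, at 53.4, 53.0 and 50.8 after 6 h with 2 μM and at 49.3, 54.5 and 61.2 after 6 h with 10 μM, above all untreated libraries in each case. Its changes were 0.72 ± 0.06 and 0.41 ± 0.04 at 2 μM (adjusted p = 3.76e-05 and 0.000634) and 0.79 ± 0.11 and 0.59 ± 0.05 at 10 μM (adjusted p = 0.00257 and 4.81e-05), for 6 and 24 h. PSMG4 changed by 0.12 ± 0.08, 0.07 ± 0.08, 0.24 ± 0.16 and 0.12 ± 0.07 and did not pass (adjusted p from 0.183 to 0.572). PSMG1, which pairs with PSMG2 to start the alpha ring, rose at 2 μM 6 h (0.44 ± 0.07, adjusted p = 0.000782) and at 10 μM 24 h (0.22 ± 0.05, adjusted p = 0.00649), whereas PSMG2 changed by -0.03 ± 0.08 and 0.06 ± 0.06 there (adjusted p = 0.807 and 0.461). Whether the partners differ was not tested.

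The immunoproteasome genes of HCT116 cells moved in opposite directions. PSMB10 was at 22.0, 21.8 and 21.5 RPKM in untreated cells and at 38.5, 42.9 and 37.2 after 6 h with 2 μM, and every treated HCT116 library was above every untreated one. It was the largest riser at 2 μM 6 h (0.84 ± 0.07, adjusted p = 4.53e-05) and at 10 μM 24 h (0.68 ± 0.05, adjusted p = 3.74e-05), and it changed by 0.45 ± 0.08 at 2 μM 24 h (adjusted p = 0.00415) and 0.63 ± 0.10 at 10 μM 6 h (adjusted p = 0.00519). PSMB9 was at 7.38, 6.31 and 6.79 RPKM in untreated cells and at 3.13, 3.28 and 3.15 after 6 h with 10 μM (-0.99 ± 0.11, adjusted p = 0.00155). It fell by 0.69 at 2 μM 6 h (SE 0.13, adjusted p = 0.00245) and by 0.56 at 10 μM 24 h (SE 0.10, adjusted p = 0.00216) on the log2 scale. At 2 μM 24 h, its 4.91, 6.38 and 4.07 RPKM overlapped the untreated range (-0.40 ± 0.14, adjusted p = 0.0591). PSMB8 was between 0.114 and 0.405 RPKM in all 15 HCT116 libraries and was not tested there.

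Read against the subunit each replaces, PSMB9 made up 4.44% ± 0.335 (SD, n = 3) of PSMB9 and PSMB6 together in untreated HCT116 cells and 1.73% ± 0.397, 2.69% ± 0.612, 1.61% ± 0.179 and 2.18% ± 0.127 at 2 μM 6 h, 2 μM 24 h, 10 μM 6 h and 10 μM 24 h. PSMB10 made up 14.9% ± 0.127 of PSMB10 and PSMB7 without Omomyc and 19.3% ± 0.787, 16.9% ± 1.81, 20.3% ± 3.11 and 17.7% ± 0.463 with it. The PSMB9 share was lower in every treated library than in every untreated one, and the PSMB10 share was higher in all but 1 treated library, at 14.9% in the 2 μM 24 h group. These shares are per length and do not depend on how a library is scaled.

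The activators did not move together either. PSME1, the alpha subunit of PA28, was at 114, 116 and 112 RPKM in untreated HCT116 cells, at 79.2, 77.5 and 81.8 after 6 h with 2 μM (-0.52 ± 0.06, adjusted p = 0.000152) and at 71.1, 67.1 and 61.6 after 6 h with 10 μM (-0.78 ± 0.10, adjusted p = 0.00196). After 24 h its changes were -0.39 ± 0.05 with 2 μM and -0.33 ± 0.05 with 10 μM (adjusted p = 0.0017 and 0.00125). PSME2, its partner in the same ring, was at 106, 114 and 108 RPKM untreated and at 104, 105 and 99.6 after 24 h with 10 μM, and it did not pass in any HCT116 comparison (log2 fold changes from -0.24 to -0.06, adjusted p from 0.204 to 0.485). PSME3, which forms the nuclear PA28 gamma ring, passed upward at 2 μM 6 h (0.25 ± 0.07, adjusted p = 0.0227) and downward at 10 μM 24 h (-0.19 ± 0.06, adjusted p = 0.0352). PSME4, the PA200 activator, did not pass (adjusted p from 0.241 to 0.81), and PSMF1, the PI31 regulator, passed at 2 μM 6 h only (0.30 ± 0.07, adjusted p = 0.00695).

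How far these rises are rises depends on the scale. When every library was brought to the same RPKM sum, which the small structural RNAs enter with their full weight, the median over all genes moved to -0.42, -0.10, -0.56 and -0.14 at 2 μM 6 h, 2 μM 24 h, 10 μM 6 h and 10 μM 24 h, and 7, 5, 0 and 7 members rose while 7, 4, 8 and 4 fell, beside 63.1%, 26%, 48.6% and 33.1% of all genes that passed in either direction. The members' medians then were -0.02, 0.04, -0.42 and 0.08, which is 0.40, 0.14, 0.14 and 0.23 above the median of all genes. As deposited, they were 0.44, 0.15, 0.19 and 0.24 above it. With median-ratio scaling 38, 23, 15 and 29 members rose, beside 45.4%, 27.8%, 30.6% and 35.5% of all genes that passed. With an equal sum over protein-coding genes 29, 26, 7 and 30 rose, beside 49.1%, 27.1%, 25.8% and 35%, and with a trend on gene length removed 38, 22, 13 and 28 rose, beside 45%, 27.3%, 29.3% and 35.4%. The members' medians lay above the median gene under each of the 5 scales. Apart from the length trend, a scale divides each library by 1 factor, which moves all genes nearly alike. That distance could therefore hardly change, and its agreement between those scales is not a test. The members' rise in RPKM was not kept with the equal RPKM sum. PSMB9 and PSME1 had lower means in treated cells under each of the 5 scales.

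**Figure D3:**
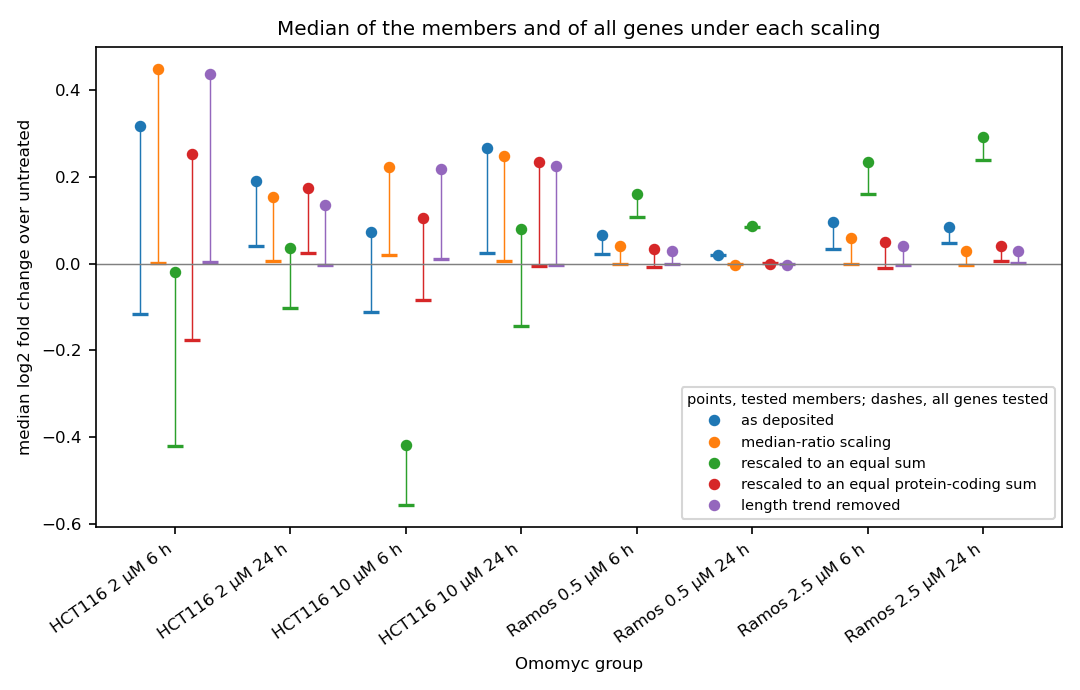
Median log2 fold change over untreated cells of the tested members (points) and of all genes tested (dashes) in each Omomyc group under 5 scalings, joined by lines. The HCT116 points lie above their dashes under every scaling, by 0.14 to 0.45, while both move down with the equal RPKM sum, and the Ramos pairs nearly touch.

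The 10 μM 6 h result rested on the library that stood apart. In replicate 3 of that group PSMC4 was at 68.3 RPKM beside 103 in replicate 1, and PSMD2 at 107 beside 169 and 164. Without it, 20 members rose and 5 fell, together 25 of 46, a share near the 51.2% of all genes that passed. How that 51.2% splits upward and downward is not given, so these counts do not set the members apart. In that fit PSMC4 changed by 0.61 (limma adjusted p = 0.000104), PSMB5 by 0.25 (adjusted p = 0.00525) and PSMB7 by 0.19 (adjusted p = 0.0183). PSMB9 and PSME1 stayed at -0.98 and -0.72. The small structural RNAs moved with that library and their part in the result was not tested.

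Doses were compared at 24 h and times at 10 μM in HCT116 cells. Between 10 and 2 μM at 24 h, 0 members passed with limma (8 had an unadjusted p under 0.05), beside 0.18% of all genes (0.14% higher and 0.0399% lower), with a median of 0.07. Between 24 and 6 h at 10 μM, PSMD10 (0.46 ± 0.10, adjusted p = 0.0346) and PSME1 (0.45 ± 0.11, adjusted p = 0.0449) were higher at 24 h, beside 7.86% of all genes (5.8% higher and 2.06% lower), with a median over the members of 0.21 beside 0.15 over all genes. Without replicate 3 of the 6 h group 9 members were higher and 2 lower, together 11 of 46, a share near the 23.5% of all genes. With all HCT116 groups in 1 fit 19 were higher and 2 lower, beside 29% of all genes.

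Ramos cells gave smaller changes, most of them at 6 h. PSMB11, the thymus subunit, was listed at 0 there, and 48 members were tested. At 0.5 μM 12 rose and 4 fell after 6 h against a background of 23.6% (13.8% upward and 9.73% downward), and at 2.5 μM 15 rose and 3 fell against 27.9% (17.3% and 10.7%), shares of 33.3% and 37.5%. The members' medians were 0.07 and 0.10, beside 0.02 and 0.03 over all genes. At 24 h, 0 members passed at 0.5 μM with limma (2 had an unadjusted p under 0.05, and 0.0146% of all genes passed), and 3 rose and 0 fell at 2.5 μM against 4.61% (3.3% upward and 1.31% downward). The medians were 0.02 and 0.09. The 6 h counts depended on single libraries, with 7 members passing at 0.5 μM without replicate 3 of the treated group (13.7% of all genes) and 11 at 2.5 μM without replicate 1 of its group (18.5% of all genes). At 2.5 μM 24 h 0 passed without replicate 2 of the untreated group (1.97% of all genes) and 8 without its replicate 3 (6.81% of all genes). The split also depended on the scale: with an equal sum over protein-coding genes 8 rose and 7 fell at 0.5 μM 6 h and 13 rose and 7 fell at 2.5 μM 6 h, beside 21.9% and 26.3% of all genes, and with the equal RPKM sum 12 and 26 rose and 0 fell, beside 20.8% and 34.4%.

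At 6 h in Ramos, 2 alpha ring genes rose at each dose, with medians over the ring of -0.07 and -0.04, and PSMA2 passed downward at 0.5 μM. PSMC3, an ATPase, was at 97.9, 102 and 101 RPKM in untreated cells and at 124, 133 and 131 after 6 h with 0.5 μM (0.36 ± 0.04, adjusted p = 0.000776), and it changed by 0.32 ± 0.04 with 2.5 μM (adjusted p = 0.000638). PSMA6, an alpha subunit, was at 225, 227 and 228 RPKM and then at 278, 286 and 265 with 0.5 μM (0.28 ± 0.04, adjusted p = 0.00229). PSMD9, a chaperone of cap assembly, was at 61.1, 50.5 and 60.6 RPKM and then at 69.4, 75.1 and 71.4 with 2.5 μM (0.33 ± 0.07, adjusted p = 0.0121). In these 3 genes all treated libraries were above all untreated ones. Of the non-ATPase genes 5 of 11 rose at each dose and of the ATPases 2 of 6. PSMB5, PSMB6 and PSMB7 did not pass in any Ramos comparison with untreated cells, with log2 fold changes from 0.03 to 0.15.

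PSMB8 and PSME2 fell at 6 h in Ramos, while PSMB9, PSMB10 and PSME1 did not pass. PSMB8 was at 144, 148 and 151 RPKM in untreated cells, at 124, 134 and 124 after 6 h with 0.5 μM (-0.21 ± 0.05, adjusted p = 0.0122) and at 132, 131 and 127 with 2.5 μM (-0.18 ± 0.04, adjusted p = 0.00856). PSME2 was at 333, 352 and 328 RPKM and then at 279.8, 292 and 273 (-0.26 ± 0.05, adjusted p = 0.005) and at 278, 296 and 287 (-0.23 ± 0.04, adjusted p = 0.00481). After 24 h with 2.5 μM both had returned into or near the untreated range, at 147 to 156 RPKM for PSMB8 and 309 to 337 for PSME2, and both were higher than at 6 h (0.23 ± 0.03, adjusted p = 0.00178, and 0.17 ± 0.04, adjusted p = 0.0131). PSMB9 and PSMB10 did not pass at any dose or time (log2 fold changes from -0.02 to 0.17, adjusted p from 0.0789 to 0.972). PSMA8, a testis alpha subunit at 8.71 to 11.4 RPKM in untreated Ramos cells, changed by -0.35 ± 0.11 and -0.41 ± 0.10 at 6 h (adjusted p = 0.044 and 0.0195).

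The members that passed at 2.5 μM for 24 h were PSMC3IP, PSME4 and PSMA5. PSME4 was at 26.7, 26.4 and 27.0 RPKM in untreated Ramos cells and at 30.9, 32.0 and 33.3 (0.26 ± 0.05, adjusted p = 0.0249), and PSMA5 was at 84.6, 84.1 and 84.9 and then at 97.9, 93.9 and 97.0 (0.19 ± 0.04, adjusted p = 0.0291). PSMC3IP changed by 0.44 ± 0.07 and 0.35 ± 0.06 at 6 h (adjusted p = 0.00314 and 0.00457) and by 0.36 ± 0.06 at 2.5 μM 24 h (adjusted p = 0.0223). PSME4 and PSMC3IP were also higher at 2.5 than at 0.5 μM after 24 h (0.26 ± 0.05 and 0.39 ± 0.08, adjusted p = 0.0208 and 0.0361), beside 4.25% of all genes (2.39% higher and 1.86% lower). Between 24 and 6 h at 2.5 μM, 9 members were higher and 7 lower, beside 23% of all genes, 12.7% higher and 10.4% lower (12 higher and 0 lower with the equal RPKM sum, beside 22.8%). The equal RPKM sum moved the median over all genes to 0.24 at 2.5 μM 24 h and then 41 members passed upward, beside 39.4% of all genes in either direction.

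All 3 immunoproteasome genes were lower in untreated HCT116 than in untreated Ramos cells. PSMB8 averaged 0.186 ± 0.0745 RPKM (SD, n = 3) in HCT116 cells and 148 ± 3.71 in Ramos cells. It passed the filter only through Ramos, and the size of its log2 difference depended on the pseudocount, so none is given. PSMB9 averaged 6.83 and 95.4 RPKM (-3.71 ± 0.07, adjusted p = 7.93e-09) and PSMB10 21.7 and 100.2 RPKM (-2.17 ± 0.06, adjusted p = 6.86e-08). PSME2 (-1.63 ± 0.05) and PSME1 (-1.12 ± 0.03) were also lower in HCT116 cells (adjusted p = 5.65e-08 and 6.68e-08), whereas PSMB5 (0.81 ± 0.05) and PSMB6 (1.01 ± 0.05) were higher (adjusted p = 2.24e-06 and 1.45e-06). In Ramos cells PSMB8, PSMB9 and PSMB10 made up 69.0% ± 0.762, 56.8% ± 0.224 and 50.8% ± 2.25 of the sum with the subunit each replaces, and in HCT116 cells PSMB8 made up 0.159% ± 0.0639. PSMA8, the testis alpha subunit, was listed at 0 in every untreated HCT116 library and averaged 9.92 ± 1.39 RPKM (SD, n = 3) in untreated Ramos cells, so no fold is given.

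Of all 48 members tested, the immunoproteasome genes included, 20 were higher and 19 lower in HCT116 cells, 81.2% beside 84.6% of all genes (45.7% higher and 39% lower), with a median difference of 0.00. PSMB8 and PSMA8 are among the 19 and entered the test through their Ramos levels alone, so their direction was settled by the filter. With the equal RPKM sum 35 were higher and 9 lower, beside 84.2% of all genes, and with the length trend removed 16 were higher and 24 lower, beside 84.5%. The largest excesses in HCT116 were in PSMD12, a cap lid subunit (68.9 against 19.7 RPKM, 1.78 ± 0.06, adjusted p = 1.88e-07), PSMC5 (1.58 ± 0.13, adjusted p = 2.11e-05) and PSMD5, a cap chaperone (24.5 against 8.11 RPKM, 1.54 ± 0.08, adjusted p = 1.13e-06). PSMG4 was lower (12.2 against 33.7 RPKM, -1.43 ± 0.06, adjusted p = 3.82e-07) and PSMG3 was not (31.6 against 30.3 RPKM, adjusted p = 0.208). Levels of subunits of the same particle were uneven within a line: across the 14 core genes, group means in untreated cells ran from 61.3 RPKM for PSMB2 to 228 for PSMB1 in HCT116 and from 35.5 for PSMB2 to 236 for PSMB1 in Ramos, so the lowest and highest genes had the same names in both. Among the core genes, PSMB1, PSMB3, PSMB4 and PSMA7 showed differences of at most 0.05 on the log2 scale between the lines.

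**Figure D4:**
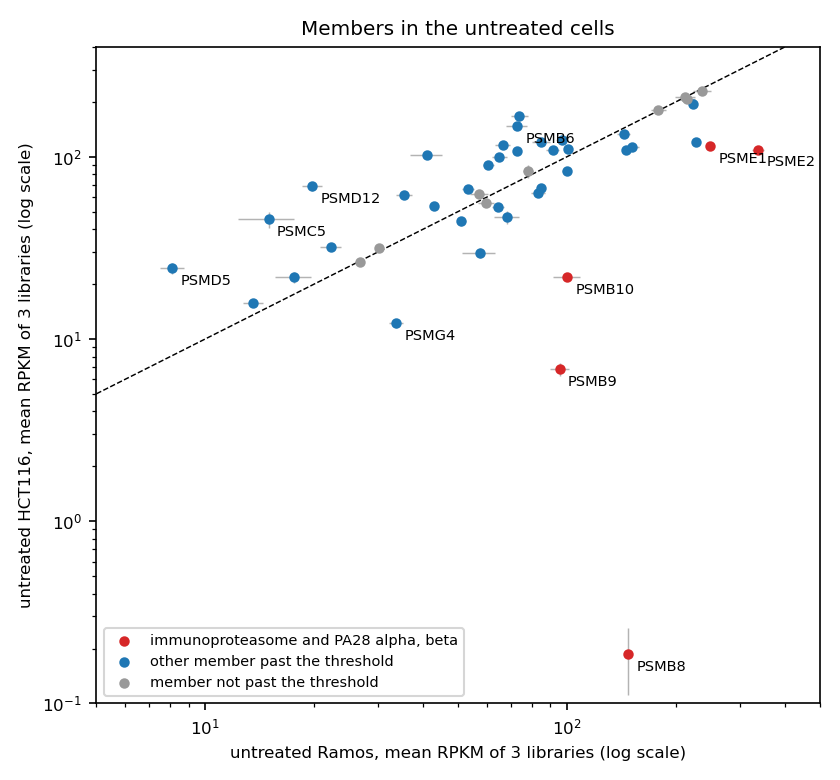
Mean RPKM of 47 tested members in untreated Ramos (horizontal, log scale) and untreated HCT116 cells (vertical, log scale), with bars for the SD of 3 libraries and a dashed line of equality, PSMA8 being left out as it is listed at 0 in HCT116. PSMB8, PSMB9, PSMB10, PSME1 and PSME2 lie below the line, PSMB8 the farthest, and PSMD12, PSMC5 and PSMD5 lie above it.

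The difference between the responses of the lines was tested at 24 h and the highest dose of each, 10 μM in HCT116 and 2.5 μM in Ramos, which are different doses. The interaction passed for 23 of 48 members, 47.9% beside 22.5% of all genes (9.65% positive and 12.9% negative), and was positive in 19, which means a higher log2 fold change in HCT116. PSMB8, near 0 in HCT116, is among the 19, and PSMA8, listed at 0 there, is among the 48. Both entered the test through their Ramos levels alone. PSMC4 had a difference of 0.54 ± 0.06 (adjusted p = 0.000243), PSMB10 of 0.55 ± 0.08 (adjusted p = 0.000978) and PSMC2 of 0.51 ± 0.12 (adjusted p = 0.0113). PSMB5, PSMB6 and PSMB7 were also positive (0.22 ± 0.07, 0.38 ± 0.08 and 0.29 ± 0.06, adjusted p = 0.0344, 0.00508 and 0.0051). The 4 negative members were PSMB9 (-0.67 ± 0.11, adjusted p = 0.0017), PSMC3IP (-0.43 ± 0.09, adjusted p = 0.00508), PSME1 (-0.41 ± 0.05, adjusted p = 0.000615) and PSME4 (-0.30 ± 0.07, adjusted p = 0.0128). With the equal RPKM sum, 0 members were positive and 13 negative past the threshold, beside 43.1% of all genes. The median over all genes was then -0.34 and that of the members -0.22, so the positive sign was not kept. The members stayed above the median gene, by a distance that dividing a library by 1 factor hardly changes.

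**Figure D5:**
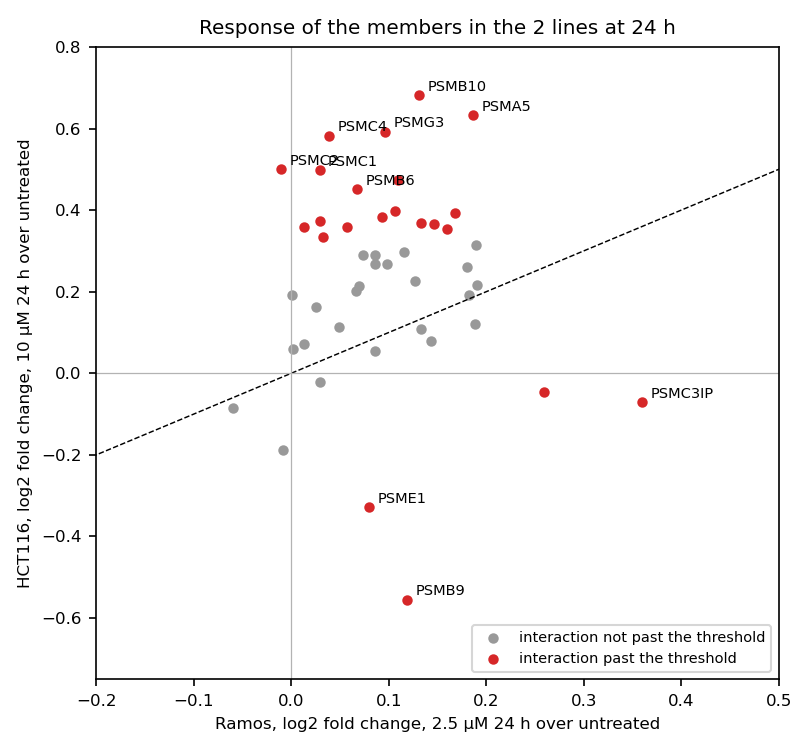
Log2 fold change at 24 h over untreated cells in Ramos with 2.5 μM (horizontal) and HCT116 with 10 μM Omomyc (vertical) for the 46 members tested in both lines, with the dashed line of equal change. Members whose interaction passed are red, and most of them lie above the line, with PSMB9, PSME1, PSMC3IP and PSME4 below it.

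Partners of the proteasome outside the PSM symbols moved in part. Of 10 proteasome partners, 6 rose and 1 fell at 2 μM 6 h in HCT116 cells, 2 rose and 1 fell at 2 μM 24 h, 0 rose and 1 fell at 10 μM 6 h, and 3 rose and 1 fell at 10 μM 24 h, beside 47.3%, 27.3%, 30% and 35.2% of all genes that passed. POMP, which matures the core, rose from 76.5 to 107 RPKM at 2 μM 6 h (0.48, adjusted p = 0.00045), and ADRM1, a ubiquitin receptor of the cap, rose from 83.3 to 109 (0.39, adjusted p = 0.001). PAAF1, an inhibitor of cap binding, fell from 7.65 to 5.09 (-0.54, adjusted p = 0.0019). Of 5 regulators, NFE2L1, the transcription factor that induces proteasome genes when proteasomes are inhibited, passed at 24 h with 2 and 10 μM (0.20 and 0.37, adjusted p = 0.018 and 0.00051). The other regulators that passed fell: NGLY1, a deglycosylase that activates NFE2L1, at 10 μM 6 h (-0.31, adjusted p = 0.048) and AKIRIN2, a factor in nuclear import of proteasomes, at 10 μM 24 h (-0.36, adjusted p = 0.016). Of 14 ubiquitin and shuttle genes, 5 rose and 4 fell at 2 μM 6 h. UBA1, the main ubiquitin-activating enzyme, fell from 109 to 69.1 RPKM there (-0.66, adjusted p = 0.00033), and UFD1, a partner of the VCP segregase, rose from 39.4 to 55.1 (0.48, adjusted p = 0.0002).

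Of 12 antigen processing genes other than the PSM members, 6 rose at 2 μM and 8 at 10 μM after 24 h in HCT116 cells. These stood beside 16.6% and 19.5% of all genes upward. In each comparison 1 fell, beside 10.8% and 15.7% of all genes downward. After 6 h 2 rose and 1 fell at 2 μM, beside 47.3% of all genes that passed. At 10 μM 6 h 0 rose and 1 fell, beside 30%. TAP1, a peptide transporter whose gene shares a promoter region with PSMB9, rose from 15.2 to 20.4 RPKM at 10 μM 24 h (0.42, adjusted p = 0.0033), and HLA-B rose from 69.0 to 90.1 (0.38, adjusted p = 0.00035). In untreated cells 10 of the 12 were lower in HCT116 than in Ramos and 2 higher, beside 39% and 45.7% of all genes. In Ramos cells at 2.5 μM 6 h, 27.9% of all genes passed, 17.3% upward and 10.7% downward. There 3 of 10 partners rose and 1 fell, and 0 of 5 regulators rose and 1 fell. Of 14 ubiquitin and shuttle genes 3 rose and 1 fell, and of 12 antigen processing genes 4 rose and 2 fell. At 2.5 μM 24 h 1 partner passed, upward, and 0 genes of the other 3 lists passed with limma, beside 4.61% of all genes. The genes named from these lists were chosen after their values were seen.

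Promoter windows of 300 bases, from 250 before to 50 after the start, were available from RefSeq (GRCh38.p14) for 43 of the 49 members. CACGTG, the E box that MYC, MAX and Omomyc dimers bind, was found in 3 of 43 (6.98%), PSMB3, PSMD9 and PSME3, beside 8.77% of 27305 genes with such a window. TGACNNNGC, searched on both strands as the core of the element read by NFE2L1 and NFE2L2, was found in 15 of 43 (34.9%) beside 16.1%. CCGGAAG, an ETS site searched on both strands, was found in 16 (37.2%) beside 12.2%, CCAAT in 21 (48.8%) beside 39.7%, the NRF1 motif in 5 (11.6%) beside 6.98% and the YY1 motif in 1 (2.33%) beside 1.04%. The 27305 genes outnumber the 19708 protein-coding genes of the deposited table, while all members are protein-coding, so these shares do not compare like sets. A gene was counted if any of its windows held the motif, and the 43 members had 53 windows. Motif matches are descriptions of letters and are not binding sites. The 250 bases before the start are printed for 4 members that rose in HCT116 cells and for 2 that fell, PSMB9 and PSME1. They were listed by name and not by a rule. PSMD10 and PSME3 also passed downward, in 1 comparison each, and are not printed. PSME3 passed upward in another comparison and holds CACGTG. Matches to CACGTG or TGACNNNGC (either strand) are in capitals. PSMB3 (chr17:38752491-38752740, plus strand) has both, PSMD3 (chr17:39980557-39980806, plus) has the second, and PSMA5 (chr1:109426449-109426698, minus) and PSMB10 (chr16:67936851-67937100, minus) have neither. PSMB9 (chr6:32853942-32854191, plus) and PSME1 (chr14:24135944-24136193, plus) have the second, so a match stood in genes that rose and in genes that fell.
PSMB3: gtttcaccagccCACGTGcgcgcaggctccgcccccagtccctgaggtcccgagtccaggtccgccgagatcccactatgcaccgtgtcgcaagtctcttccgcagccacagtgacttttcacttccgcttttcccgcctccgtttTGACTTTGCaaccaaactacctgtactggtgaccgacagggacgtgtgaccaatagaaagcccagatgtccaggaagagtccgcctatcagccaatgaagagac
PSMD3: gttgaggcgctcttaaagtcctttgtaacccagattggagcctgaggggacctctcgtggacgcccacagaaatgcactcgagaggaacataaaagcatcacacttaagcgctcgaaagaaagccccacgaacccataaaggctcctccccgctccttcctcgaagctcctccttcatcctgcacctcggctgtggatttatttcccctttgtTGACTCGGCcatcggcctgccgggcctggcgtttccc
PSMA5: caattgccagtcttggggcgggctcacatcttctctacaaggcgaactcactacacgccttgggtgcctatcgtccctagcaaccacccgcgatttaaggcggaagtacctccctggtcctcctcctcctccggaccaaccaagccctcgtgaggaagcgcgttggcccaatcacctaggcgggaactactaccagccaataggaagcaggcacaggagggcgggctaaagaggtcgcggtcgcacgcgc
PSMB10: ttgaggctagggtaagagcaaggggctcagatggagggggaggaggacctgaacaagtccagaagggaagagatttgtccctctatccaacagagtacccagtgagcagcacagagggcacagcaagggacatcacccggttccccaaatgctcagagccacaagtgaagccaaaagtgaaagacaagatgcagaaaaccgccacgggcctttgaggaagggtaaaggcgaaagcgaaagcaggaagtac
PSMB9: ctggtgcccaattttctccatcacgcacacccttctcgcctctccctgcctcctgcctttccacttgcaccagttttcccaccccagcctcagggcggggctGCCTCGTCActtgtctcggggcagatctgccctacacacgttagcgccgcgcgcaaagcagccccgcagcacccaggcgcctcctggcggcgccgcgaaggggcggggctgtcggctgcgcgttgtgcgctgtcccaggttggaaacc
PSME1: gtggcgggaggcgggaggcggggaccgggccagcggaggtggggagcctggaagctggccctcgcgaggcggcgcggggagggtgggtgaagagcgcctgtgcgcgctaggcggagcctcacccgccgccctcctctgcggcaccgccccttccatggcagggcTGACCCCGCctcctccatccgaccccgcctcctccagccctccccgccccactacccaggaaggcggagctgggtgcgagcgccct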

How the data were processed

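RNA was prepared by the authors with a stranded total RNA kit with rRNA depletion, and the authors deposited 1 table of RPKM for 57992 genes in 30 libraries (10 groups of 3). RSEM is named in the submitters' processing notes. The aligner, genome build, annotation and filters are not given in the sources used here. As the RPKM carry fractions that give no whole reads, sequencing depth is unknown and no count model was used. Groups come from the labels. A tag reads 4 h for libraries titled 24 h, and 24 h was used.

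Gene symbols were taken from the GENCODE annotation (release 29, GRCh38), which held 57388 of the 57992 identifiers and lacked 604. PSME3IP1 carries another symbol there and is not among the members. For each of 14 comparisons, log2(RPKM + 0.5) was fitted with limma 3.58.1 in R 4.3.3 (lmFit, eBayes with a trend) in the libraries of the comparison, after genes below a mean RPKM of 0.5 were removed, and p-values were adjusted by Benjamini-Hochberg over all genes tested. A fold change on this scale understates that of low genes. Exact permutation of 3 against 3 libraries cannot give a p below 0.1 and was not used.

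Named with tests are, in each comparison, up to 3 members with the largest rises and 3 with the largest falls past the threshold (mean RPKM of at least 2, groups not overlapping, the last not required of the interaction), and always PSMB5 to PSMB10, PSME1 to PSME4, PSMF1 and PSMG1 to PSMG4. The members and lists were chosen with earlier results of these data known. The settings varied were the pseudocount (0.1 and 1), the filter (none), the scaling (4 others, that on protein-coding genes added after seeing the data), a replicate block, all groups of a line in 1 fit and leaving out each library. Of the antigen processing list, 1 gene is counted among those tested and is not reported here.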

Additional observations from a re-analysis of the deposited data

Results flagged for a closer look

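The response to Omomyc at 24 h differed between the lines by the interaction of line and treatment (limma, adjusted p under 0.05) for 23 of 48 members, beside 22.5% of all genes. The 23 include PSMB8, near 0 RPKM in HCT116, and the 48 include PSMA8, listed at 0 there. Both entered the test through their Ramos levels alone. With the equal RPKM sum 0 members were positive and 13 negative, beside 43.1% of all genes. By the rule for named genes the largest positive differences, HCT116 minus Ramos on the log2 scale, were 0.55 for PSMB10, 0.54 for PSMC4 and 0.51 for PSMC2, and the largest negative ones were -0.67 for PSMB9, -0.43 for PSMC3IP and -0.41 for PSME1. In Ramos alone, PSMB9 and PSME1 changed by 0.12 and 0.08 at 2.5 μM 24 h, in HCT116 by -0.56 and -0.33 at 10 μM 24 h. The highest doses of the lines differ, so line and dose cannot be told apart.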

How the results depend on the processing

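With the RPKM sum of every library set equal, the counts of members past the threshold moved, given here with the share of all genes. In HCT116 they were 14 at 2 μM 6 h (63.1%), 9 at 2 μM 24 h (26%) and 11 at 10 μM 24 h (33.1%). In Ramos they were 41 at 2.5 μM 24 h (39.4%) and 20 between the doses at 24 h (18.8%). For the interaction the count was 13 (43.1%). At 10 μM 6 h in HCT116 the count stayed at 8, but 5 higher and 3 lower became 0 higher and 8 lower (48.6%). On that scale the members' median changed sign at 2 μM 6 h (-0.0191), at 10 μM 6 h (0.07 to -0.42) and in the interaction (-0.22). Single genes reversed there too: PSME3 (-0.0906) and PSMF1 (-0.0282) at 2 μM 6 h and PSMB6 (-0.0860) at 10 μM 6 h in HCT116, PSME3 (0.20) at 2.5 μM 24 h in Ramos, PSME4 (0.55), PSMG1 (0.48) and PSMG2 (0.36) between the untreated lines, and PSMB5 (-0.17), PSMB6 (-0.00728), PSMB7 (-0.10) and PSMG1 (-0.37) in the interaction. With the trend on gene length removed PSME3 (-0.23) and PSMF1 (-0.00992) reversed between the untreated lines. In that setting 16 members passed at 10 μM 6 h and 1 at 2.5 μM 24 h, beside 29.3% and 2.64% of all genes. The cause was not tested.

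With all groups of a line in 1 fit, 12 passed at 2 μM 24 h, beside 7.51% of all genes. In HCT116 15 also passed at 10 μM 6 h (44.3%) and 21 between 24 and 6 h (29%). In Ramos 10 passed at 2.5 μM 24 h (9.14%) and 6 between the doses (6.65%). With median-ratio scaling 17 passed at 10 μM 6 h (30.6% of all genes) and 1 between 24 and 6 h in HCT116 (6.5%). In Ramos 1 passed at 2.5 μM 24 h (2.54%). Without a filter, where more genes are tested, 0 passed between 24 and 6 h in HCT116, beside 1.01% of all genes. In Ramos 0 passed at 2.5 μM 24 h (0.331%), 9 between 24 and 6 h (7.76%) and 0 between the doses (0.251%). With an equal sum over protein-coding genes, chosen after seeing the data, 1 passed at 2.5 μM 24 h in Ramos (2.48% of all genes). Between 24 and 6 h in HCT116 0 passed (3.63%).

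Replicate numbers did not pair the samples, as correlations of same-numbered libraries' deviations ran from -0.22 to 0.18. With the replicate block 5 members passed at 10 μM 6 h (27.7% of all genes). Between 24 and 6 h in HCT116 0 passed (1.72%). In Ramos 0 passed at 2.5 μM 24 h (1.45%) and 1 between the doses (2.69%). The other counts stayed within 1.5 times.

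Leaving out 1 library at a time moved the counts, given here with the share of all genes in a fit at each end. In HCT116 it gave 4 to 25 members at 10 μM 6 h (12.2% and 51.2%). Between 24 and 6 h there it gave 0 to 11 (1.15% and 23.5%). In Ramos it gave 7 to 16 at 0.5 μM 6 h (13.7% and 22.1%) and 11 to 20 at 2.5 μM 6 h (18.5% and 27.2%). At 2.5 μM 24 h it gave 0 to 8 (1.97% and 6.81%). In Ramos it also gave 9 to 13 between 24 and 6 h (17.8% and 18.1%) and 0 to 3 between the doses (1.98% and 4.73%). The extremes at 10 μM 6 h were without untreated replicate 2 or 3 (4) and without treated replicate 3 (25). Leaving out 1 library gave 31 to 36 at 2 μM 6 h (36.6% and 45.2%) and 23 to 31 at 2 μM 24 h (14.5% and 20.8%). At 10 μM 24 h it gave 30 to 33 (25% and 31.7%). Between the untreated lines it gave 37 to 39 (80.3% and 84.3%), and for the interaction 20 to 28 (17.1% and 20.3%). No named member that passed in the full or the reduced fit changed sign. Members that passed in neither could do so, as PSMF1 did at 10 μM 6 h, from -0.04 to 0.07 without treated replicate 3. Over the other alternatives, 1937 gene values stayed on their side of the threshold, 85 lost it, 71 gained it and 13 reversed. A reversal was counted only where the gene passed in the main or the alternative fit. Depth is unknown, so counting error could not be given.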
